A study of Homo sapiens with 6 samples.

Results

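The DNA replication licensing and fork genes are 57 protein-coding genes whose products assemble the replicative helicase at origins, switch it on, copy the DNA and repackage it. They were chosen by name, for these functions, with earlier results of these data known. All 57 were found once each among the 60676 genes of the count table, and all 57 were tested. The cells were TC71, an Ewing sarcoma line that carries the EWS-FLI1 fusion oncogene. Both groups carried a lentiviral construct that makes an shRNA under a doxycycline (Dox) switch together with GFP, were selected with puromycin and kept as polyclonal lines, and were grown with Dox at 0.5 µg/ml for 3 days. The 3 libraries of shEHD1+Dox came from cells with shRNA against EHD1, an ATPase of the endocytic recycling compartment, and the 3 libraries of shNTC+Dox cells expressed a non-targeting control shRNA. Several EHD1 shRNAs were made in the study, and the sources do not say which of them, or whether a mix, was used for these libraries. The comparison asks how the RNA of these genes differed between the EHD1 knockdown and the control. The 2 groups differ in line and in shRNA as well as in EHD1, so effects of these cannot be told apart. The sources do not say whether the 3 libraries of a group came from separate cultures, so the p-values measure only the spread between these libraries, which may be technical.

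In a dividing cell the origin recognition complex (ORC) binds origins in G1 and, with CDC6 and CDT1, loads the MCM2-7 helicase onto DNA, a step called licensing. Geminin (GMNN) binds CDT1 in S phase and so stops an origin from being licensed again. At the onset of S phase the kinases CDC7-DBF4 and CDK2, with TOPBP1 and DONSON, bring CDC45 and the GINS complex to the helicase. MCM10 and RECQL4 are also needed for initiation. The polymerases, the PCNA clamp and its loader then follow. Transcription of many of these genes rises from late G1 into S phase under E2F factors, while the proteins of several others are regulated mainly after transcription. RNA from bulk cells was measured, so a smaller share of cells in S phase and less of an RNA in each cell cannot be told apart.

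Each library held 22711235 to 30582187 counts. Levels are given as CPM (counts scaled to a common library size) after TMM normalization, and a fold change is the log2 of shEHD1+Dox over shNTC+Dox, so that a negative value is lower in the knockdown. Where 2 sets of 3 levels are given for a gene, the first set holds shNTC+Dox replicates 1, 2 and 3 and the second shEHD1+Dox replicates 1, 2 and 3. Gene positions are those of GRCh38 (hg38). EHD1 itself was at 27.1, 28.0 and 26.4 CPM in the shNTC+Dox libraries and at 7.55, 7.15 and 9.37 CPM in the shEHD1+Dox libraries, with 29.6% of the transcript left. The 10 Ewing sarcoma markers examined, such as NKX2-2, NR0B1 and CD99, were all expressed in every library. Their sum was 2887 to 2906 CPM among the control libraries and 2632 to 2750 CPM among those of the knockdown. CCND1 made up the largest part of this sum, with a control mean of 1381 CPM and a knockdown mean of 1186 CPM. At an adjusted p under 0.05, 3 markers were lower, namely STEAP1, PAX7 and BCL11B (log2 fold changes -0.43, -0.38 and -0.75). By the same rule 1 was higher, CD99 (0.33), and CCND1 did not pass. Of all genes tested, 8.75% were lower and 8.59% higher in this way. The 5 fibroblast markers summed to 20.2 to 29.9 and 24.6 to 27.6 CPM in the 2 groups, with DCN lower in shEHD1+Dox. The 3 leukocyte markers summed to 3.34 to 5.63 and 2.17 to 4.81 CPM, where PTPRC and LYZ were at or near 0. The 3 epithelial markers summed to 24.0 to 27.4 and 28.5 to 30.9 CPM, nearly all of it KRT18, with EPCAM and CDH1 at or near 0. The part of these markers in the results was not tested. A pair of libraries stood apart for the replication genes. In shNTC+Dox replicate 3 the level was the highest of its group for 49 of the 57 genes (86.0%, against 41.6% of all genes tested), and in shEHD1+Dox replicate 2 it was the highest of its group for 48 (84.2%, against 38.8%).

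Most of the replication genes had a lower level in shEHD1+Dox, and each of those that passed the test was lower. Of the 57, 20 fell at an adjusted p under 0.05 in edgeR's quasi-likelihood test (35.1%), where 8.75% of all 16785 genes tested were lower by this rule. None rose in that test, where 8.59% of all genes were higher, and none rose in the Wald test of DESeq2 either. At an unadjusted p under 0.05, 36 of the 57 were lower, where 16.3% of all genes were, and 1, ORC3, was higher, where 16% of all genes were. PCNA alone of the 57 fell by at least 2-fold at an adjusted p under 0.05, a share close to the 1.74% of all genes that did. None rose by this rule, where 1.08% of all genes did. The fold change was below 0 for 49 genes and above 0 for 8, against 49.9% of all genes below 0. The median log2 fold change was -0.34 for the replication genes, with a range from -1.05 to 0.24, and 0.0008 for all genes tested. The median gene of the 20 that fell kept 66.8% of its level.

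Level by level, all 3 shEHD1+Dox libraries lay below all 3 shNTC+Dox libraries for 33 genes (57.9%), against 19.4% of all genes tested. They lay above for 1 gene, ORC3, against 19.9% of all genes. The groups overlapped for the remaining 23. Of the 16 overlapping genes with a fold change below 0, shEHD1+Dox replicate 2 reached the lowest shNTC+Dox library for 14 and was the only one to do so for 11. Median deviations of the 57 genes from their mean over both groups were 0.09, 0.07 and 0.35 on the log2 scale in shNTC+Dox replicates 1, 2 and 3, and -0.19, -0.03 and -0.26 in shEHD1+Dox replicates 1, 2 and 3. The replication genes took 0.535% to 0.660% of the counts of a shNTC+Dox library and 0.430% to 0.512% of a shEHD1+Dox library.

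**Figure D1:**
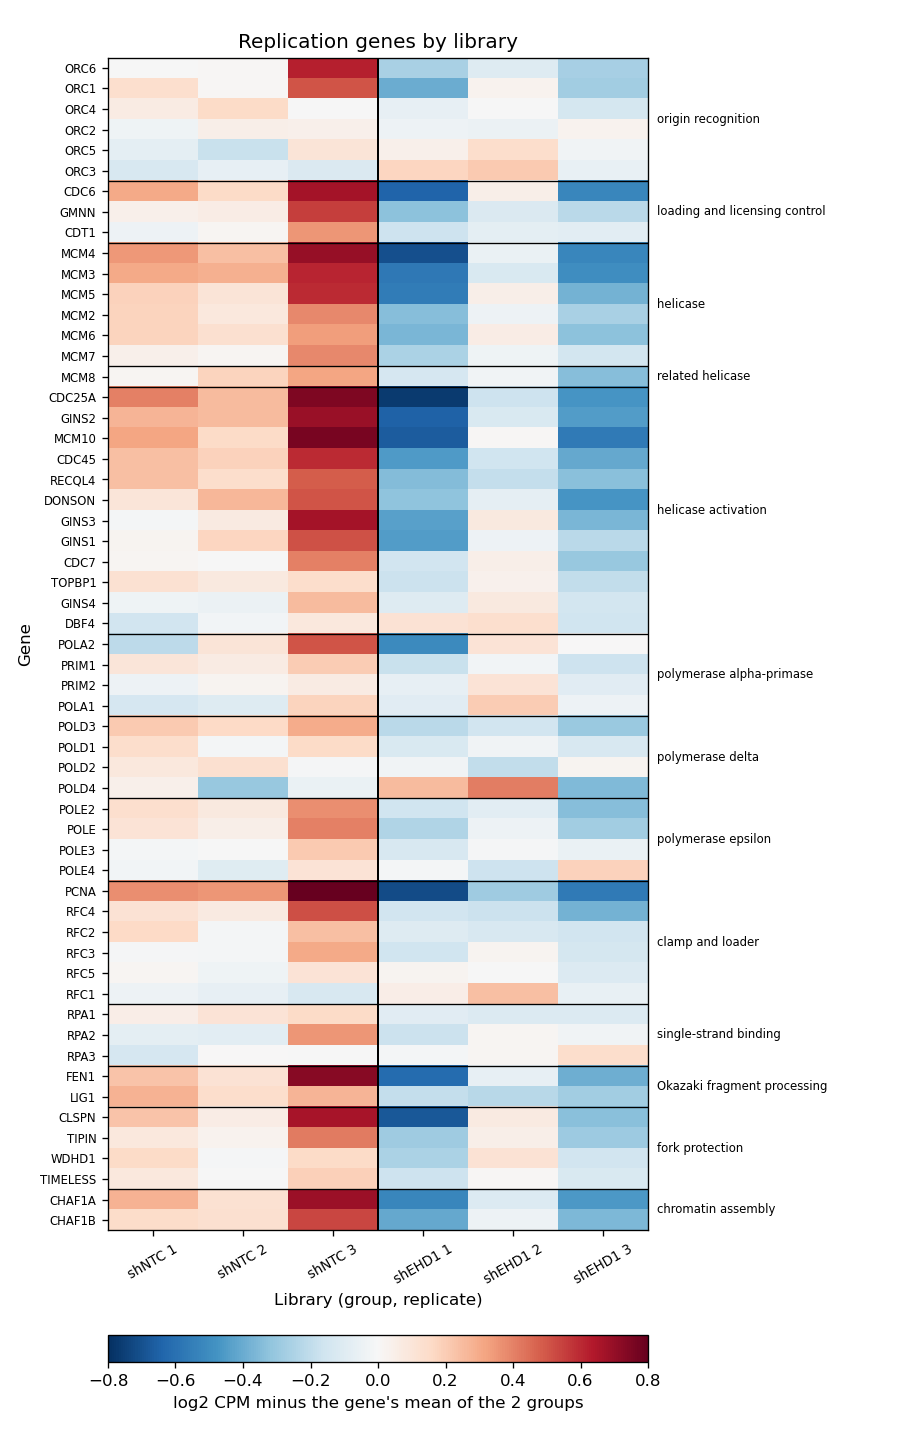
Each row is 1 of the 57 replication genes, ordered by role, and each column 1 of the 6 libraries; the color is the log2 CPM minus the gene's mean over both groups. The shNTC+Dox replicate 3 column is the highest of its group for 49 genes, and the shEHD1+Dox replicate 2 column lies closest to 0, with a median of -0.03.

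The direction held without either of those libraries, and the number of genes passing the test depended on 2 others. Without shNTC+Dox replicate 3, 16 genes fell where 10.5% of all genes did, the median log2 fold change was -0.22 and 48 genes lay below 0. Without shEHD1+Dox replicate 2, 22 genes fell where 6.62% of all genes did, the median was -0.41 and 50 genes lay below 0. Without shEHD1+Dox replicate 1, 8 genes fell where 4.39% of all genes did, and without shEHD1+Dox replicate 3, 7 fell where 4.15% of all genes did. Across the 57 genes the counts were well above the filter in every library, the lowest being 387. The Wald test of DESeq2 called 32 genes lower, where it called 11.1% of all genes lower, and the 32 included all 20 of the edgeR test.

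**Figure D2:**
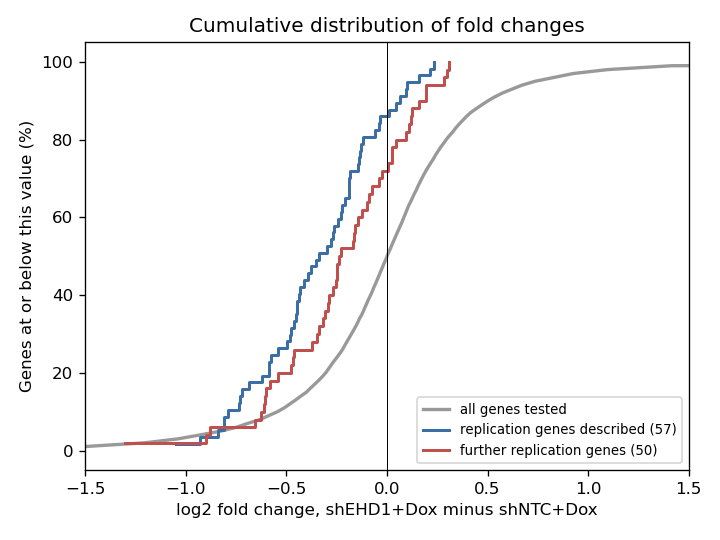
The horizontal axis is the log2 fold change and the vertical axis the percentage of genes at or below it, for all genes tested, the 57 replication genes and 50 further replication genes. The curve of the 57 genes crosses the 50% line at -0.34, that of the further genes at -0.23 and that of all genes at 0.0008.

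Several promoters are shown because the licensing genes are textbook targets of E2F, and the sequences let a reader see where an E2F word sits in genes that fell and in genes that did not pass. The RefSeq promoter windows (GRCh38.p14, 250 bases before to 50 after the transcription start) gave at least 1 window for 49 of the 57 genes, 63 windows in all. The E2F words searched, on both strands, were TTTCCCGC, TTTGGCGC, TTTCGCGC and TTTGCCGC. These words occurred in 25 of the 63 windows (39.7%), against 4.83% of the windows of all genes tested and 3.31% of all 35116 promoter windows. By gene, they occurred in 25 of the 49 (51.0%), against 6.55% of the genes tested and 3.99% of all genes with a window. Each sequence below is written 5′ to 3′ on the strand of its gene, and the capitals mark the word, which appears as its reverse complement where it lies on the other strand.

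In 4 genes that fell, where the stretch shown lies outside the annotated span of the gene, the words lay 44 to 174 bases before the start:
PCNA, chr20:5126654-5126701, minus strand, 59 bases before the start: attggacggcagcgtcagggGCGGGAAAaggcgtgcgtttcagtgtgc
CDC25A, chr3:48188434-48188481, minus strand, 44 bases before the start: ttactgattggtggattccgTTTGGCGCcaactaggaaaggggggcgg
MCM6, chr2:135876502-135876549, minus strand, 86 bases before the start: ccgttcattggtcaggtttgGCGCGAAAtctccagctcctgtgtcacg
MCM3, chr6:52284889-52284936, minus strand, 174 bases before the start: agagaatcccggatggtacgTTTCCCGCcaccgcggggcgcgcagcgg

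Among genes that did not pass the test, the same words were found in CDT1, POLE4 and POLA1, whose log2 fold changes were -0.23, 0.01 and 0.04:
CDT1, chr16:88803734-88803781, plus strand, 35 bases before the start: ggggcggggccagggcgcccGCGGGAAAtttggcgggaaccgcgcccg
POLE4, chr2:74958592-74958639, plus strand, 31 bases before the start: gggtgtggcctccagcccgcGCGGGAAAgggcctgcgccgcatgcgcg
POLA1, chrX:24693761-24693808, plus strand, 137 bases before the start: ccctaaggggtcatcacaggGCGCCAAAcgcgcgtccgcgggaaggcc
The window of MCM6 holds overlapping copies of TTTGGCGC and TTTCGCGC. An E2F word was present in 9 of the 16 genes that fell and had a window (56.2%) and in 16 of the 33 that did not pass (48.5%). The CCAAT word, bound by NF-Y, was in 54.0% of the members' windows, 34.5% of the windows of genes tested and 34.6% of all windows. The CHR word TTTGAA, typical of genes expressed in G2 and mitosis, was in 2 of the members' windows (3.17%), 10.7% of the windows of genes tested and 15.2% of all windows. A word is a match of letters and does not show that a factor was bound.

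Of the 6 subunits of the origin recognition complex none passed the test, and their median log2 fold change was -0.09. At an unadjusted p under 0.05, ORC1 and ORC6 were lower and ORC3 higher, where 16.3% and 16% of all genes were. DESeq2 called 2, ORC1 and ORC6. ORC6, the smallest subunit, was at 36.3, 36.7 and 56.0 CPM in the shNTC+Dox libraries and at 30.4, 33.8 and 30.3 CPM in the shEHD1+Dox libraries. The groups did not overlap, but shNTC+Dox replicate 3 lay far above the other controls, and the log2 fold change of -0.45 (SE 0.17, adjusted p = 0.102) became -0.22 without it. ORC1, the subunit whose level cycles, was at 53.5, 49.1 and 69.3 CPM and 37.0, 49.7 and 40.2 CPM, a log2 fold change of -0.44 (adjusted p = 0.0818), with shEHD1+Dox replicate 2 inside the control range. ORC2 was nearly level at 60.4, 63.8 and 63.6 CPM and 60.1, 59.7 and 63.0 CPM (log2 fold change -0.04, 95% interval -0.19 to 0.11). ORC3 was the one gene with every shEHD1+Dox library above every control, at 61.4, 63.0 and 52.2 CPM against 49.8, 52.0 and 50.2 CPM, with a log2 fold change of 0.22 (adjusted p = 0.117). ORC4 and ORC5 had log2 fold changes of -0.14 and 0.10.

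The helicase loaders and their inhibitor were lower in every shEHD1+Dox library than in any control, as were 19.4% of all genes tested. None of the 3 passed the edgeR test. At an unadjusted p under 0.05, 2 were lower, where 16.3% of all genes were, and DESeq2 called the same 2, CDC6 and GMNN. CDC6, the ATPase that loads MCM2-7 together with ORC, was at 77.1, 69.4 and 99.4 CPM in shNTC+Dox and at 40.1, 64.5 and 43.5 CPM in shEHD1+Dox. CDC6 had a log2 fold change of -0.73 (SE 0.21), and its adjusted p of 0.0510 lay just over the threshold, with a range from 8.34e-04 to 0.181 over the 11 alternatives. GMNN was at 57.6, 58.3 and 81.9 CPM and 44.5, 51.6 and 48.2 CPM, a log2 fold change of -0.45 (adjusted p = 0.0536). CDT1, the loader that GMNN blocks, was at 77.6, 80.5 and 102 CPM and 71.0, 75.7 and 75.3 CPM, a log2 fold change of -0.23 (adjusted p = 0.171). The log2 ratio of CDT1 to GMNN stood at 0.43, 0.47 and 0.32 in the shNTC+Dox libraries and at 0.67, 0.55 and 0.64 in the shEHD1+Dox libraries. These ratios did not overlap, and the difference of 0.22 had an exact two-sided permutation p of 0.1, the smallest that 3 libraries against 3 allow, and an adjusted p of 0.15 over the 3 ratios examined.

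All 6 subunits of the MCM2-7 helicase, the ring that unwinds the DNA ahead of the fork, lay lower in every shEHD1+Dox library than in any control, and 4 of them fell. Of all genes tested, 19.4% lay lower in this way and 8.75% fell. The median log2 fold change of the 6 was -0.51. MCM4 (ENSG00000104738), which lies on chromosome 8 from 47960185 to 47978160, was at 327, 304 and 417 CPM in shNTC+Dox and at 158, 248 and 179 CPM in shEHD1+Dox. The log2 fold change of MCM4 was -0.84 (SE 0.19, adjusted p = 0.0247). MCM3 (ENSG00000112118), on chromosome 6 from 52264014 to 52284881, was at 291, 288 and 361 CPM and 159, 218 and 168 CPM, a log2 fold change of -0.79 (SE 0.14, adjusted p = 0.00680). In both genes shEHD1+Dox replicate 2 was the highest of the knockdown libraries and shNTC+Dox replicate 3 the highest control. MCM3 passed under all 11 alternatives (adjusted p at most 0.0357), while MCM4 did not pass when shNTC+Dox replicate 1 (adjusted p = 0.0514), shNTC+Dox replicate 3 (adjusted p = 0.101), shEHD1+Dox replicate 1 (adjusted p = 0.0613) or shEHD1+Dox replicate 3 (adjusted p = 0.0825) was left out.

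MCM2 and MCM6 fell by less. MCM2 was at 277, 260.1 and 319 CPM and 193, 238 and 205 CPM, a log2 fold change of -0.43 (adjusted p = 0.0222), and 23.6% of its exon bases are shared with an annotated gene on the opposite strand. MCM6 was at 209, 202 and 233 CPM and 144, 192 and 147 CPM, a log2 fold change of -0.41 (adjusted p = 0.0413). With the replicate number as a block neither MCM2 nor MCM6 passed (adjusted p = 0.0544 and 0.0731). MCM2 did not pass when shEHD1+Dox replicate 1 (adjusted p = 0.0908) or shEHD1+Dox replicate 3 (adjusted p = 0.0881) was left out, and MCM6 did not pass when shNTC+Dox replicate 1 (adjusted p = 0.0813), shNTC+Dox replicate 2 (adjusted p = 0.0594), shNTC+Dox replicate 3 (adjusted p = 0.0973), shEHD1+Dox replicate 1 (adjusted p = 0.143) or shEHD1+Dox replicate 3 (adjusted p = 0.146) was left out. MCM5 was at 166, 157 and 222 CPM and 99.2, 151 and 113 CPM and MCM7 at 323, 317 and 410.0 CPM and 263, 306 and 284 CPM. Their log2 fold changes of -0.58 and -0.30 did not pass (adjusted p = 0.0738 and 0.0936). DESeq2 called both (adjusted p = 0.00374 and 0.0389), and MCM5 passed under 2 and MCM7 under 1 of the 11 alternatives. MCM8, a related helicase that works with MCM9 in homologous recombination and is not part of the ring, was at 66.8, 74.9 and 82.2 CPM and 60.3, 64.9 and 52.2 CPM. Its log2 fold change of -0.34 (SE 0.10) did not pass (adjusted p = 0.0572), and 33.3% of its exon bases are shared with another annotated gene. DESeq2 called MCM8 (adjusted p = 0.0214), which passed under 3 of the 11 alternatives.

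**Figure D3:**
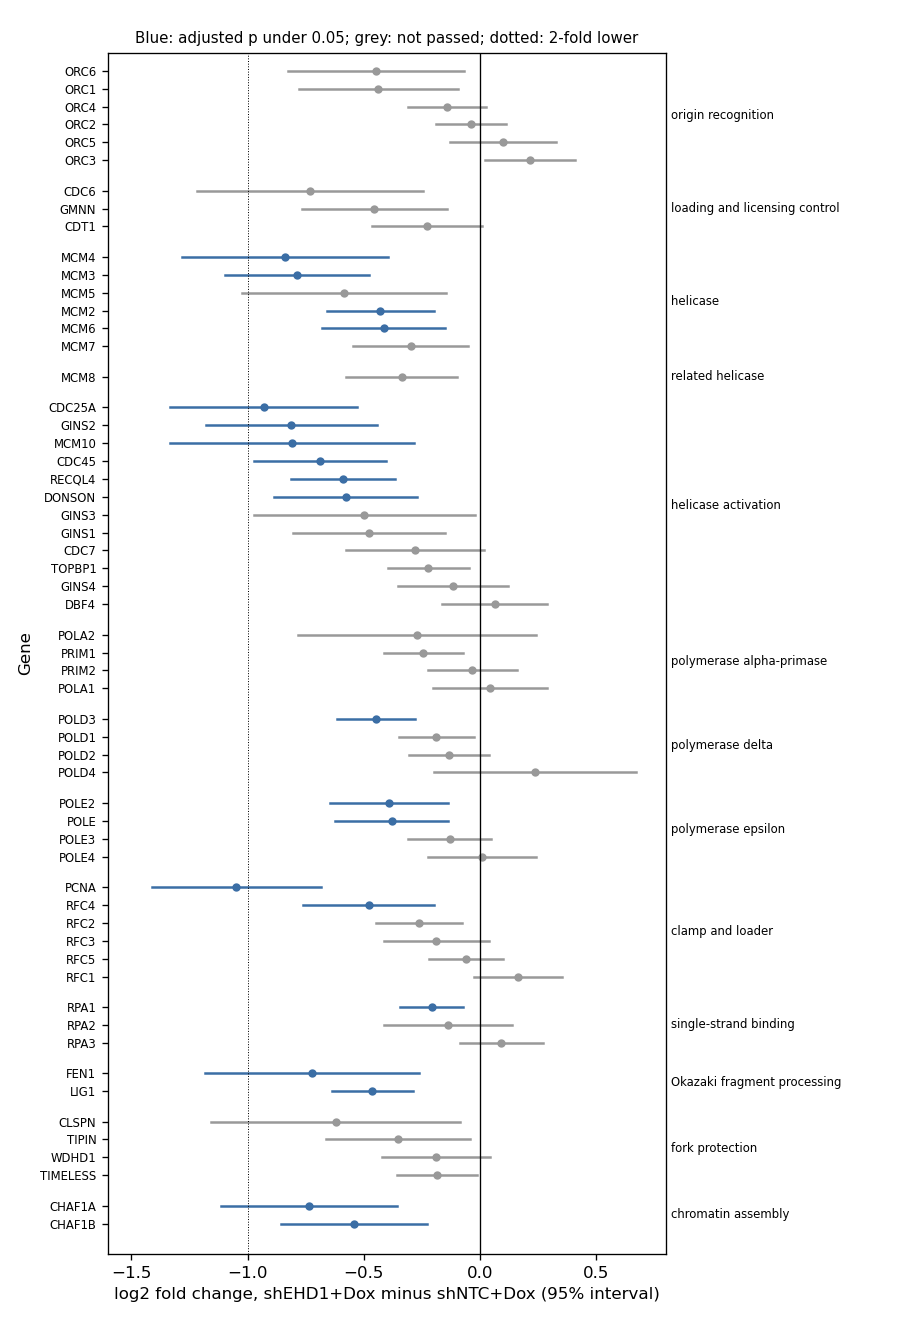
Each point is the log2 fold change of 1 of the 57 genes on the horizontal axis with its 95% interval, grouped by role; blue points passed an adjusted p under 0.05, grey points did not, and the dotted line marks a 2-fold fall. The 20 blue points all lie below 0, and PCNA alone lies past the dotted line.

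Among the 12 factors that switch the helicase on, 6 fell, where 8.75% of all genes tested did, and the median log2 fold change was -0.54. CDC25A (ENSG00000164045), the phosphatase that activates CDK2, had the lowest value of them. It lies on chromosome 3 from 48157146 to 48188417 and was at 71.7, 64.8 and 91.2 CPM in shNTC+Dox and at 31.9, 48.5 and 39.1 CPM in shEHD1+Dox, which left 52.5% of its level. Its log2 fold change was -0.93 (SE 0.17, adjusted p = 0.0107), and it passed under all 11 alternatives, with an adjusted p of at most 0.0491. CDC45, the helicase's partner in the active CMG complex (ENSG00000093009, chromosome 22, from 19479457 to 19520612), was at 61.9, 59.7 and 79.3 CPM and 38.3, 47.0 and 39.4 CPM. The libraries of CDC45 were well separated, its log2 fold change was -0.69 (SE 0.13, adjusted p = 0.00778), and it also passed under all 11 alternatives.

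Of the 4 GINS subunits, which complete the CMG complex, GINS2 alone passed the edgeR test, where 8.75% of all genes tested fell. GINS2 (ENSG00000131153, chromosome 16, from 85676198 to 85690073) was at 32.6, 32.2 and 43.6 CPM and 17.2, 24.8 and 19.8 CPM, a log2 fold change of -0.81 (SE 0.16, adjusted p = 0.0116), and did not pass when shEHD1+Dox replicate 3 (adjusted p = 0.0552) was left out. GINS1 and GINS3, with log2 fold changes of -0.48 and -0.50, did not pass (adjusted p = 0.0530 and 0.138). GINS1 passed under 4 of the 11 alternatives and GINS3 under none. Those of GINS1 included the Wald test of DESeq2 (adjusted p = 0.00900) and the replicate block (adjusted p = 0.0441). GINS4 was at 37.9, 37.6 and 46.4 CPM and 36.2, 41.0 and 35.2 CPM, overlapping, with a log2 fold change of -0.12 (95% interval -0.35 to 0.12). MCM10, which is needed for the helicase to start unwinding (ENSG00000065328, chromosome 10, from 13161558 to 13211110), was at 62.4, 55.9 and 84.9 CPM and 31.6, 50.6 and 33.9 CPM. The fall of MCM10 was large, -0.81 on the log2 scale, and loosely estimated (SE 0.22, adjusted p = 0.0483). With the replicate number as a block it was not passed (adjusted p = 0.0916). MCM10 did not pass when shNTC+Dox replicate 1 (adjusted p = 0.0885), shNTC+Dox replicate 3 (adjusted p = 0.144), shEHD1+Dox replicate 1 (adjusted p = 0.126) or shEHD1+Dox replicate 3 (adjusted p = 0.140) was left out, nor without a filter on low counts (adjusted p = 0.103).

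RECQL4, a helicase needed for initiation, was at 78.8, 73.5 and 93.3 CPM and 52.2, 58.3 and 52.9 CPM, a log2 fold change of -0.59 (adjusted p = 0.00532) that passed under all 11 alternatives. DONSON, which helps bring GINS to the helicase, was at 26.1, 29.2 and 34.6 CPM and 19.5, 23.2 and 17.6 CPM, with a log2 fold change of -0.58 (adjusted p = 0.0215). DONSON did not pass when shEHD1+Dox replicate 1 (adjusted p = 0.0810) or shEHD1+Dox replicate 3 (adjusted p = 0.0883) was left out. Nor did it pass with the replicate number as a block (adjusted p = 0.0514), and 16.9% of its exon bases are shared with other genes. TOPBP1, the scaffold on which CDC45 and GINS are brought in, was at 143, 139 and 145 CPM and 117, 135 and 115 CPM, a log2 fold change of -0.22 that did not pass (adjusted p = 0.0794). DESeq2 called TOPBP1 (adjusted p = 0.04495), which passed under 2 of the 11 alternatives. The kinase CDC7 and its activator DBF4 had log2 fold changes of -0.28 and 0.06, and neither passed (adjusted p = 0.175 and 0.7003). The log2 ratio of CDC7 to DBF4 came to -0.03, -0.18 and 0.12 for the controls and to -0.47, -0.29 and -0.34 for the knockdown. The ratios did not overlap (exact permutation p = 0.1, adjusted p = 0.15).

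Of the 12 subunits of the replicative polymerases 3 fell, where 8.75% of all genes tested did. In polymerase alpha-primase, which lays down the RNA-DNA primers, none of the 4 subunits passed (1, PRIM1, had an unadjusted p under 0.05 and was called by DESeq2) and the median log2 fold change was -0.14. POLA2, its regulatory subunit, was at 43.4, 53.9 and 71.1 CPM in shNTC+Dox and 35.2, 54.0 and 50.3 CPM in shEHD1+Dox, with groups that overlapped and a log2 fold change of -0.27 (SE 0.22, adjusted p = 0.439). POLA2 shares 21.3% of its exon bases with other genes. The catalytic subunit POLA1 was at 77.9, 79.7 and 96.8 CPM and 80.4, 98.5 and 83.1 CPM (log2 fold change 0.04, 95% interval -0.20 to 0.29). PRIM1, the primase catalytic subunit, was lower in every knockdown library at a log2 fold change of -0.24 (adjusted p = 0.0550), and that of PRIM2 was -0.03.

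In polymerase delta, which copies the lagging strand, 1 of 4 subunits fell, where 8.75% of all genes tested did. POLD3, the accessory subunit that binds PCNA (ENSG00000077514, chromosome 11, from 74493851 to 74669117), was at 58.5, 56.5 and 62.2 CPM and 43.5, 45.4 and 41.1 CPM. The spread within each group was small, and its log2 fold change of -0.45 (SE 0.07, adjusted p = 0.00508) passed under all 11 alternatives. The log2 fold change of the catalytic subunit POLD1 was -0.19 (adjusted p = 0.106), that of POLD2 -0.13 and that of POLD4 0.24, the last with a 95% interval of -0.20 to 0.67. In polymerase epsilon, which copies the leading strand, the catalytic subunit POLE and its partner POLE2 fell. POLE was at 228, 218 and 279.8 CPM and 178, 206 and 174 CPM, a log2 fold change of -0.38 (adjusted p = 0.0415), and did not pass when shNTC+Dox replicate 1 (adjusted p = 0.0655), shEHD1+Dox replicate 1 (adjusted p = 0.136) or shEHD1+Dox replicate 3 (adjusted p = 0.145) was left out. POLE2 (ENSG00000100479, chromosome 14, from 49643555 to 49688422) was at 26.2, 25.2 and 30.9 CPM and 21.4, 22.5 and 18.8 CPM, a log2 fold change of -0.39 (SE 0.11, adjusted p = 0.0422). It stayed close to the threshold and did not pass when shNTC+Dox replicate 1 (adjusted p = 0.0785), shNTC+Dox replicate 2 (adjusted p = 0.0508), shNTC+Dox replicate 3 (adjusted p = 0.0550), shEHD1+Dox replicate 1 (adjusted p = 0.112), shEHD1+Dox replicate 2 (adjusted p = 0.05995) or shEHD1+Dox replicate 3 (adjusted p = 0.156) was left out, nor without a filter on low counts (adjusted p = 0.0559). With the replicate number as a block neither POLE nor POLE2 passed (adjusted p = 0.0923 and 0.104). The histone-fold subunits POLE3 and POLE4 had log2 fold changes of -0.13 and 0.01.

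PCNA (ENSG00000132646), the sliding clamp that holds polymerases and FEN1 on DNA, fell the most of the 57 genes over all 6 libraries. It lies on chromosome 20 from 5114953 to 5126626. Its level was 209, 206 and 287 CPM in the shNTC+Dox libraries and 98.0, 132 and 109 CPM in the shEHD1+Dox libraries, so that the highest knockdown library lay well under the lowest control. The log2 fold change was -1.05 (SE 0.16, adjusted p = 0.00444), which left 48.3%. PCNA passed under all 11 alternatives, but the fall was under 2-fold when shNTC+Dox replicate 3 was left out, at -0.88, or when shEHD1+Dox replicate 1 was, at -0.95.

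Of the 5 subunits of replication factor C, which loads PCNA, 1 fell, where 8.75% of all genes tested did, namely RFC4. It was at 58.4, 56.6 and 76.9 CPM and 48.4, 47.8 and 41.4 CPM, a log2 fold change of -0.48 (adjusted p = 0.0319), and did not pass when shEHD1+Dox replicate 1 (adjusted p = 0.0759), shEHD1+Dox replicate 2 (adjusted p = 0.0761) or shEHD1+Dox replicate 3 (adjusted p = 0.114) was left out. RFC4 did not pass with the replicate number as a block either (adjusted p = 0.0807). RFC2 was at 63.0, 55.7 and 66.5 CPM and 52.4, 51.5 and 50.5 CPM (log2 fold change -0.26, adjusted p = 0.0568). DESeq2 called RFC2 (adjusted p = 0.0314), which passed under 3 of the 11 alternatives. RFC3 and RFC5 had log2 fold changes of -0.19 and -0.06. The large subunit RFC1 was at 130.3, 128 and 123 CPM and 139, 158 and 129 CPM, a log2 fold change of 0.16 (adjusted p = 0.217).

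RPA coats the single-stranded DNA behind the helicase, and of its 3 subunits the largest, RPA1, fell, where 8.75% of all genes tested did. RPA1 (ENSG00000132383, chromosome 17, from 1829702 to 1900082) was at 137, 142 and 146 CPM and 124, 122 and 122 CPM, a small log2 fold change of -0.21 (SE 0.06, adjusted p = 0.0457). Its knockdown libraries hardly differed from each other, yet the test was not passed when shNTC+Dox replicate 1 (adjusted p = 0.0839), shNTC+Dox replicate 2 (adjusted p = 0.111), shEHD1+Dox replicate 1 (adjusted p = 0.1304), shEHD1+Dox replicate 2 (adjusted p = 0.0762) or shEHD1+Dox replicate 3 (adjusted p = 0.143) was left out, nor without a filter on low counts (adjusted p = 0.104). With the replicate number as a block RPA1 did not pass either (adjusted p = 0.111). RPA2 and RPA3 had log2 fold changes of -0.14 and 0.09, with adjusted p-values of 0.471 and 0.461.

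Both genes for joining Okazaki fragments fell, where 8.75% of all genes tested did. FEN1, the flap endonuclease that trims the fragments (ENSG00000168496, chromosome 11, from 61792911 to 61797238), was at 142, 131 and 200.4 CPM and 78.9, 115 and 92.4 CPM. Its log2 fold change was -0.72 (SE 0.20, adjusted p = 0.0457), and shNTC+Dox replicate 3 lay far above the other controls. FEN1 did not pass when shNTC+Dox replicate 1 (adjusted p = 0.0689), shNTC+Dox replicate 3 (adjusted p = 0.0760), shEHD1+Dox replicate 1 (adjusted p = 0.119) or shEHD1+Dox replicate 3 (adjusted p = 0.127) was left out, nor without a filter on low counts (adjusted p = 0.0969). With the replicate number as a block FEN1 did not pass either (adjusted p = 0.065). LIG1, the ligase that seals the nicks, was at 39.2, 35.6 and 39.0 CPM and 28.3, 27.6 and 26.6 CPM. It fell by less, -0.46 on the log2 scale, but with a tight spread (adjusted p = 0.00515), and passed under all 11 alternatives.

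The 4 fork protection genes all had groups that overlapped, and none passed. At an unadjusted p under 0.05, 3 were lower, where 16.3% of all genes were, and DESeq2 called 1, CLSPN. CLSPN, which carries the ATR signal to CHEK1 at stalled forks, was at 83.1, 74.1 and 112 CPM and 44.4, 74.6 and 56.2 CPM, a log2 fold change of -0.62 (SE 0.22, adjusted p = 0.108). Only shEHD1+Dox replicate 2 reached the control range, and without that library the adjusted p was 0.0424. TIMELESS and TIPIN, partners in the complex that couples helicase and polymerase, had log2 fold changes of -0.19 and -0.35 (adjusted p = 0.1301 and 0.110). WDHD1, which links the helicase to polymerase alpha, had a log2 fold change of -0.19.

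Both large subunits of chromatin assembly factor 1 fell, where 8.75% of all genes tested did. This factor deposits histones H3 and H4 behind the fork through PCNA. CHAF1A (ENSG00000167670, chromosome 19, from 4402640 to 4445018) was at 79.3, 71.3 and 105 CPM and 45.6, 60.7 and 47.5 CPM, a log2 fold change of -0.74 (SE 0.16, adjusted p = 0.0205). CHAF1B was at 39.0, 38.5 and 51.1 CPM and 26.6, 34.2 and 27.4 CPM, a log2 fold change of -0.54 (adjusted p = 0.0292). With the replicate number as a block neither CHAF1A nor CHAF1B passed (adjusted p = 0.05145 and 0.0587). CHAF1A did not pass when shEHD1+Dox replicate 1 (adjusted p = 0.0785) or shEHD1+Dox replicate 3 (adjusted p = 0.0782) was left out, and CHAF1B did not pass when shEHD1+Dox replicate 1 (adjusted p = 0.109) or shEHD1+Dox replicate 3 (adjusted p = 0.108) was left out.

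**Figure D4:**
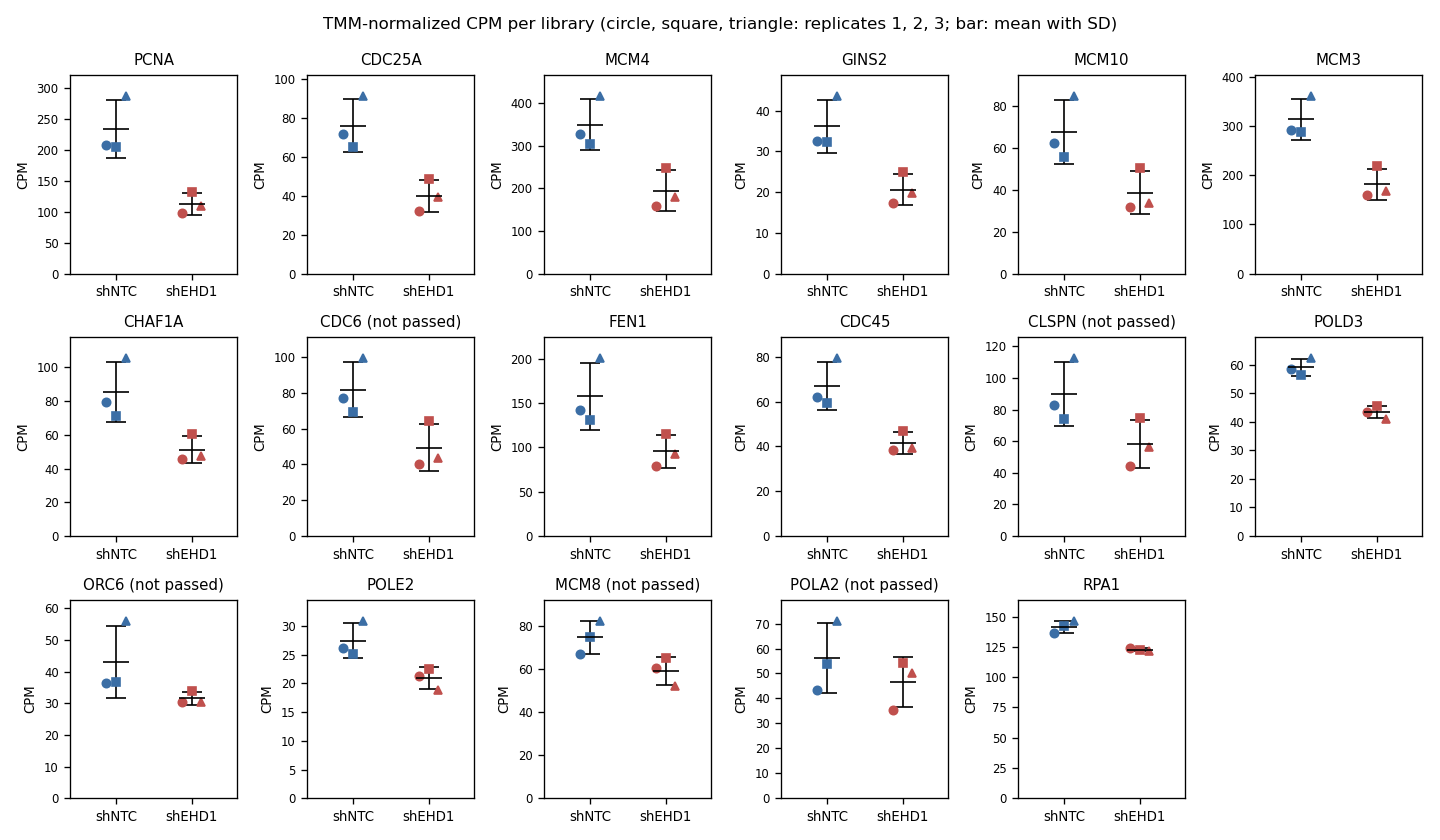
Each panel is 1 of the 17 genes described with full statistics; the vertical axis is TMM-normalized CPM from 0, the markers are replicates 1, 2 and 3 of shNTC+Dox and shEHD1+Dox, and the bars are the mean with its SD. PCNA, MCM3 and CDC45 have clearly separated groups, while POLA2 and CLSPN overlap.

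The genes also differed in level, compared here as CPM per kilobase of exon over all annotated transcripts. In shNTC+Dox the levels ran from 3.34 for LIG1 to 167 for PCNA, with a median of 18.3 CPM per kilobase, and 54 of the 57 lay above 5. After PCNA came MCM3 at 86.0 ± 11.3, POLE3 at 76.1 ± 6.96, FEN1 at 71.7 ± 17.0 and MCM7 at 70.6 ± 10.5 CPM per kilobase (SD, n = 3), whose spreads overlapped. In shEHD1+Dox PCNA was still the highest, at 80.6 ± 12.6, but POLE3 at 69.5 ± 2.92 and MCM7 at 57.4 ± 4.37 then lay above MCM3 at 49.8 ± 8.68, where the spreads of MCM7 and MCM3 overlapped. Annotated transcripts that keep introns lower this measure, and LIG1 has 11348 bases of annotated exon against 1403 in PCNA. Across the 57 genes Spearman's rho of the log2 fold change was -0.16 with the level per kilobase in shNTC+Dox and 0.03 with exon length, a description of genes measured in the same libraries.

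**Figure D5:**
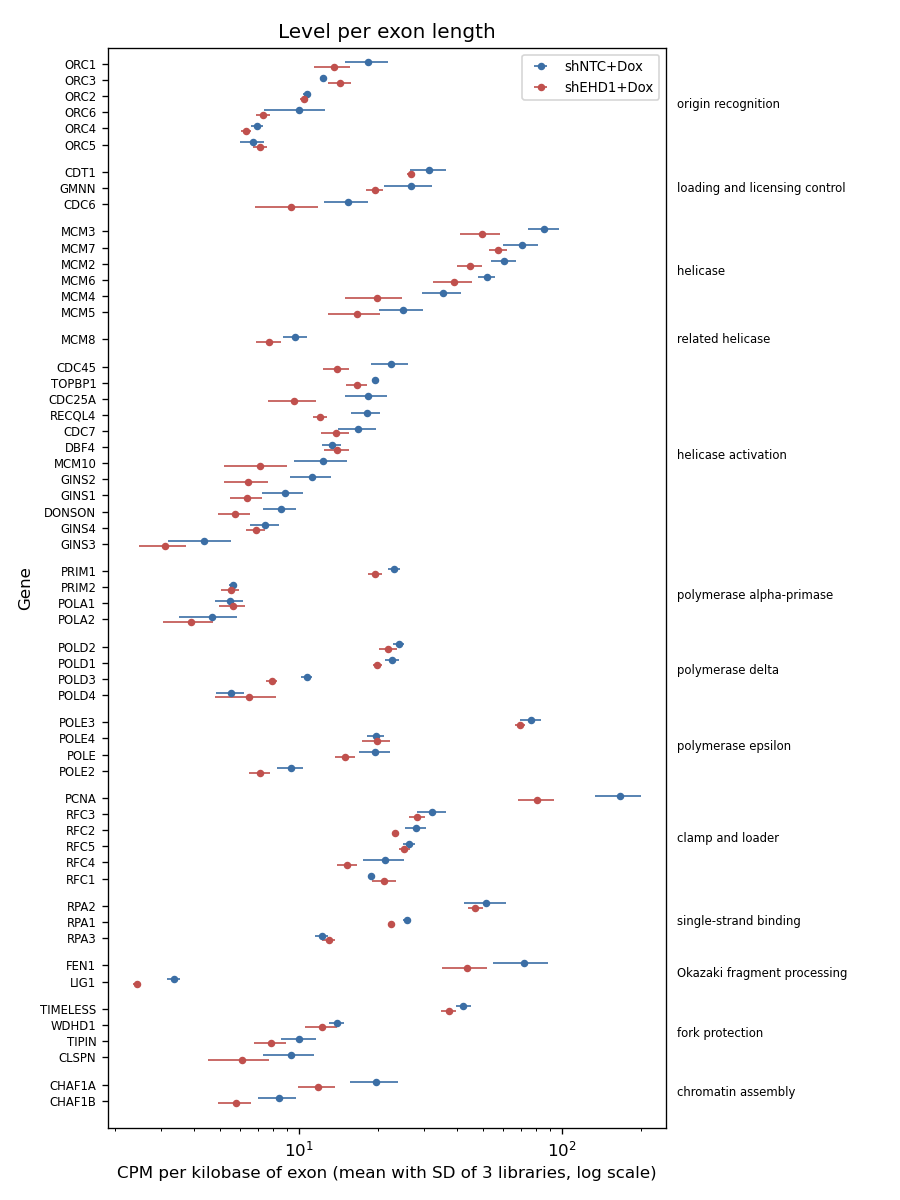
The horizontal axis, on a log scale, is CPM per kilobase of exon for each of the 57 genes by role; points are the mean of 3 libraries and bars its SD, for shNTC+Dox and shEHD1+Dox. PCNA is the highest in both groups, at 167 and 80.6, and LIG1 the lowest, at 3.34 and 2.42.

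Reads of overlapping genes could be counted on either, since the library kit does not keep the strand. Of the 13 genes that share more than 5% of their exon bases with another gene, 2 fell (15.4%). Of the 44 that share 5% or less, 18 fell (40.9%), where 8.75% of all genes tested did. The log2 ratio of ORC1 to ORC2, a cycling against a non-cycling subunit, came to -0.17, -0.38 and 0.12 for the controls and to -0.70, -0.26 and -0.65 for the knockdown, overlapping (exact permutation p = 0.2, adjusted p = 0.2).

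A list of 50 further replication genes was also chosen with earlier results of these data known. It covered CDK2 and its cyclins, regulators of licensing, other fork and Okazaki factors, chromatin factors and the replication checkpoint. All 50 were tested. Of these, 16 fell (32.0%, against 8.75% of all genes), 1 rose (against 8.59%), 33 did not pass, and the median log2 fold change was -0.23. All 3 shEHD1+Dox libraries lay below all controls for 22 (44%, against 19.4% of all genes) and above them for 4, where the background was 19.9%. The largest fall was that of CCNE2, a cyclin that activates CDK2 at the start of S phase, at 21.2, 18.7 and 34.9 CPM in shNTC+Dox and 7.23, 13.9 and 9.24 CPM in shEHD1+Dox, a log2 fold change of -1.30 (SE 0.31, adjusted p = 0.0307). CCNE2 did not pass when shNTC+Dox replicate 1 (adjusted p = 0.0540), shEHD1+Dox replicate 1 (adjusted p = 0.0822) or shEHD1+Dox replicate 3 (adjusted p = 0.1002) was left out, nor without a filter on low counts (adjusted p = 0.0680). Nor did CCNE2 pass with the replicate number as a block (adjusted p = 0.0521). Its fall was under 2-fold when shNTC+Dox replicate 3 was left out, at -0.99, and 37.1% of its exon bases are shared with INTS8 and another gene. EXO1, a nuclease of repair and fork processing, was at 64.3, 60.9 and 91.2 CPM and 36.4, 45.4 and 34.5 CPM, a log2 fold change of -0.90 (SE 0.17, adjusted p = 0.0113). DTL, the ubiquitin ligase adaptor that destroys CDT1 on PCNA, was at 100.5, 98.0 and 133 CPM and 48.7, 74.3 and 57.4 CPM, a log2 fold change of -0.88 (SE 0.17, adjusted p = 0.0144). EXO1 did not pass when shEHD1+Dox replicate 1 (adjusted p = 0.0502) was left out, and DTL did not pass when shEHD1+Dox replicate 3 (adjusted p = 0.0589) was left out. RAD17, which loads the checkpoint clamp and shares 9.14% of its exon bases with other genes, was the 1 gene that rose, from 46.6, 47.5 and 51.0 CPM to 62.2, 57.5 and 56.7 CPM. Its log2 fold change was 0.28 (SE 0.07, adjusted p = 0.0316), and it did not pass when shNTC+Dox replicate 1 (adjusted p = 0.108), shNTC+Dox replicate 2 (adjusted p = 0.0900), shEHD1+Dox replicate 1 (adjusted p = 0.1296), shEHD1+Dox replicate 2 (adjusted p = 0.0571) or shEHD1+Dox replicate 3 (adjusted p = 0.0691) was left out. RAD17 did not pass with the replicate number as a block either (adjusted p = 0.0859). Leaving out either shEHD1+Dox replicate 1 or 3 reduced the further genes that fell to 5.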

How the data were processed

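RNA was measured in 6 TC71 libraries, 3 of shNTC+Dox and 3 of shEHD1+Dox, grouped by their labels. The authors deposited raw counts, whole numbers for each gene that had not been normalized. The submitters' processing notes name STAR 2.7.3a, DESeq2 and hg38, whereas the study's methods name hisat2 and StringTie, and how the counts were derived and how reads that fit several genes were treated is not given in the sources used here. The TruSeq kit keeps no strand. Each column of counts was matched to a sample.

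Counts were TMM-normalized and fitted by edgeR 4.0.16 under R 4.3.3 (robust glmQLFit and glmQLFTest). The fit held 16785 genes, those reaching 10 counts in 3 or more libraries, and p-values were adjusted over all of them by the Benjamini-Hochberg method. The standard error is the size of the log2 fold change divided by the square root of F. Log2 CPM used a prior count of 2. Ratios were tested by an exact two-sided permutation test. Exon lengths came from GENCODE release 44, which held 99.5% of the gene identifiers, and promoter windows from RefSeq.

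Full statistics were given for genes past the threshold with a log2 fold change of at least 0.6 in size and for the largest change in each role group, 17 in all, and for the 3 largest falls and up to 3 rises among the further genes. The 57 genes, their roles, the further genes and the markers were chosen with earlier results of these data known. Alternatives were DESeq2 size factors, no filter, at least 10 counts in all 6 libraries, the Wald test of DESeq2 1.42.0, a replicate block and each library left out. Counts of genes below 0 under these settings were added after the data were seen. The fits were tested on simulated data. Intervals cover the spread between these libraries only, and depth was 22711235 to 30582187 counts.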

Additional observations from a re-analysis of the deposited data

How the results depend on the processing

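The number of replication genes lower at an adjusted p under 0.05 was 20 of 57. It was 32 with the Wald test of DESeq2 (11.1% of all genes were lower by that rule) and 10 with the replicate number as a block (5.31%), and it ran from 7 to 22 when a library was left out (4.15% to 10.5%). It was 20 with DESeq2 size factors (8.84%), 16 without a filter (3.85%) and 26 with at least 10 counts in all 6 libraries (10.7%), against 8.75% in the fit reported. None was higher under any of the 11 alternatives, 48 to 51 genes lay below 0, the median log2 fold change ran from -0.41 to -0.22, and no fold change of the 17 genes given full statistics changed sign. The number lower by 2-fold was 1, and 0 to 4 when a library was left out. Of the 20 genes that fell, 7 passed under all 11 alternatives (MCM3, CDC45, POLD3, PCNA, LIG1, RECQL4 and CDC25A) and 11 did not pass with the replicate block, while 25 of the 37 others passed under none. Of the further genes, 16 were lower, 8 with the replicate block and 5 to 16 when a library was left out. The further genes higher numbered 1, with 2 by the Wald test of DESeq2, 0 with the replicate block and 0 to 2 when a library was left out. All 3 shEHD1+Dox libraries lay above all controls for 1 replication gene, and for 3 with scaling by library totals only. Same-numbered libraries deviated from their group means with correlations of 0.07, -0.06 and -0.04 across genes, so the numbers were not taken to pair the libraries. A lone left-out library leaves 2 in its group, and the cause of the changes was not tested.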
